A study of Mus musculus with 14 samples.

Results

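The genes of the mitochondrial ribosome were followed in kidney cortex of mice that carry the GGT-HIF1A_M3 transgene ("TRACK") and of wild-type mice. Members were all rows of the deposited expression table whose gene name is Mrpl or Mrps followed by a number and which reached 1 FPKM (a read count corrected for gene length and sequencing depth) in at least 3 libraries. Of 77 such names, 76 passed, 47 of the large subunit (Mrpl) and 29 of the small subunit (Mrps), among 12251 genes tested in all. Mrpl23 did not pass, since its FPKM lay between 0.0433 and 0.835 over the 14 libraries.

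The study crossed genotype with diet, and all mice had a C57BL/6 strain background. On regular, vitamin A sufficient chow there were 3 wild-type libraries (WT) and 4 transgenic ones (TRACK). On a vitamin A deficient diet there were 3 wild-type libraries (WT-VAD) and 4 transgenic ones (TRACK-VAD). The diets began 2 weeks after weaning and lasted 24 weeks. GGT is the gamma-glutamyl transferase gene, whose promoter is used to drive transgenes in proximal tubule cells, and the submitters describe HIF1A, the oxygen-regulated subunit of hypoxia-inducible factor, as constitutively active in these mice. The cortex holds many other cells, so a cell type that gave fewer cells and a cell type that gave less RNA per cell cannot be told apart here.

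Mitochondria keep their own ribosome, which translates the few proteins encoded in mitochondrial DNA, all of them membrane subunits of the respiratory chain and the ATP synthase. Its RNAs are transcribed inside the organelle, but all of its proteins are encoded in the nucleus, made in the cytosol and imported. The small subunit reads the messenger RNA and the large subunit forms the peptide bond, so both are needed in equal number. Proximal tubule cells are among the cells richest in mitochondria.

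The mean levels of both subunits lay close together in every library. After scaling between libraries, the mean log2 level of the large-subunit genes relative to WT differed from that of the small-subunit genes by -0.04 to 0.04 in all 14 libraries. A factor common to a library nearly cancels in this difference, so the scaling has almost no part in it. Other pairs of gene sets were not set beside it, so whether the subunits were coordinated was not tested. Single members differed by -0.56 to 0.29 between TRACK and WT. Relative to the typical gene, the members lay slightly lower in transgenic kidneys on either diet, with medians of -0.11 (large) and -0.13 (small) on chow and of -0.11 and -0.10 on the deficient diet. Without WT library 1 the large-subunit median on chow was -0.07, and without WT-VAD library 2 both medians on the deficient diet were -0.04. In the deposited FPKM without scaling these medians were instead 0.06 and 0.04 on chow and 0.09 and 0.11 on the deficient diet, where the median of all genes itself stood at 0.16 and 0.18. Relative to WT, the cytosolic ribosomal protein genes stood above the mitochondrial ones in every transgenic library.

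Genes at 1 FPKM or more numbered 11206 to 11429 in the wild-type libraries and 11778 to 12277 in the transgenic ones, so breadth differed with genotype. FPKM keeps no absolute depth. Scale factors ran from 0.897 to 1.18 and were lowest in the wild-type libraries. TRACK-VAD library 2 stood apart, with a median correlation of 0.959 to the rest of its group against 0.975 to 0.992 for the other 13 libraries. The labels give lane 6 for the WT-VAD group and for TRACK-VAD library 4, and lane 5 for all others, so in wild-type mice diet and lane cannot be told apart. Genotype on the deficient diet is nearly as tied to lane, since TRACK-VAD library 4 alone shares a lane with WT-VAD. All 12 proximal tubule markers were detected in every group, but 6 of them were lower in TRACK than in WT and 6 in TRACK-VAD than in WT-VAD. The median log2 difference of the 12 was -0.85 on chow and -0.78 on the deficient diet, and all 12 were below 0 in each. A sum of their levels shows less of this, since it rests mostly on the most abundant markers. On chow their summed scaled FPKM ran from 59258.6 to 65081.3 in WT against 52086.7 to 58960.0 in TRACK. On the deficient diet it ran from 55667.9 to 67914.2 in WT-VAD against 27613.0 to 65297.8 in TRACK-VAD. The 9 macrophage markers, none at 0, summed to between 46.9 and 55.4 in WT libraries, 103 and 122 in TRACK libraries, 49.5 and 71.3 in WT-VAD libraries, and 131 and 348 in TRACK-VAD libraries. The part of these shifts in tissue makeup in the results that follow was not tested.

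Within a library the members spanned a wide range of levels. In WT, the median over genes of the scaled FPKM was 44.5 for the large subunit (10.6 to 157) and 45.7 for the small subunit (14.4 to 190.0). Mrps21, homologue of a bacterial small-subunit protein that sits near the messenger RNA, was the highest member with 190.0 ± 19.4 (SD, n = 3). Mrps35 with 136 ± 10.4 and Mrps18c with 81.3 ± 8.71 followed in the small subunit. The highest large-subunit genes were Mrpl17 at 157 ± 9.46, Mrpl2 at 146 ± 6.23 and Mrpl30 at 129 ± 6.93 scaled FPKM. The lowest were Mrpl11 at 10.6 ± 0.0958, Mrpl1 at 12.8 ± 0.254 and Mrpl57 at 13.2 ± 1.73 in the large subunit, and Mrps36 at 14.4 ± 1.02, Mrps27 at 14.9 ± 0.348 and Mrps22 at 17.5 ± 1.31 in the small subunit. FPKM corrects for length, but 31 members share at least 20 exonic bases with another annotated gene, 8 of them on the same strand, and for those the authors' counting could have split or added reads. Mrpl53 shares 695 such bases with Gm42688 on the same strand, and Mrps34 shares 763 with Nme3. In the authors' deposited tables Mrpl53 has a mean normalized count of only 0.269, although its mean deposited FPKM was 44.1. Mrps34 has a count of 206 there at a mean FPKM of 43.2.

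The members varied little between mice of a group. The SD of log2 values within groups had a median of 0.12 (0.05 to 0.33), against 0.15 for the 5310 genes with levels in the same range. Mrpl43 was the steadiest at 0.05. Mrpl18, a protein of the central protuberance of the large subunit, was the most variable at 0.33, followed by Mrpl33 at 0.23. Mrpl18 FPKM as deposited was 38.8, 74.5 and 48.4 in WT, 45.9, 46.7, 46.2 and 31.6 in TRACK, 76.3, 53.3 and 41.7 in WT-VAD, and 62.0, 49.7, 39.7 and 39.0 in TRACK-VAD. The groups overlapped, and the SE of its log2 difference was 0.23 in FPKM but 0.09 in the authors' deposited table, which rests on counts.

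**Figure D1:**
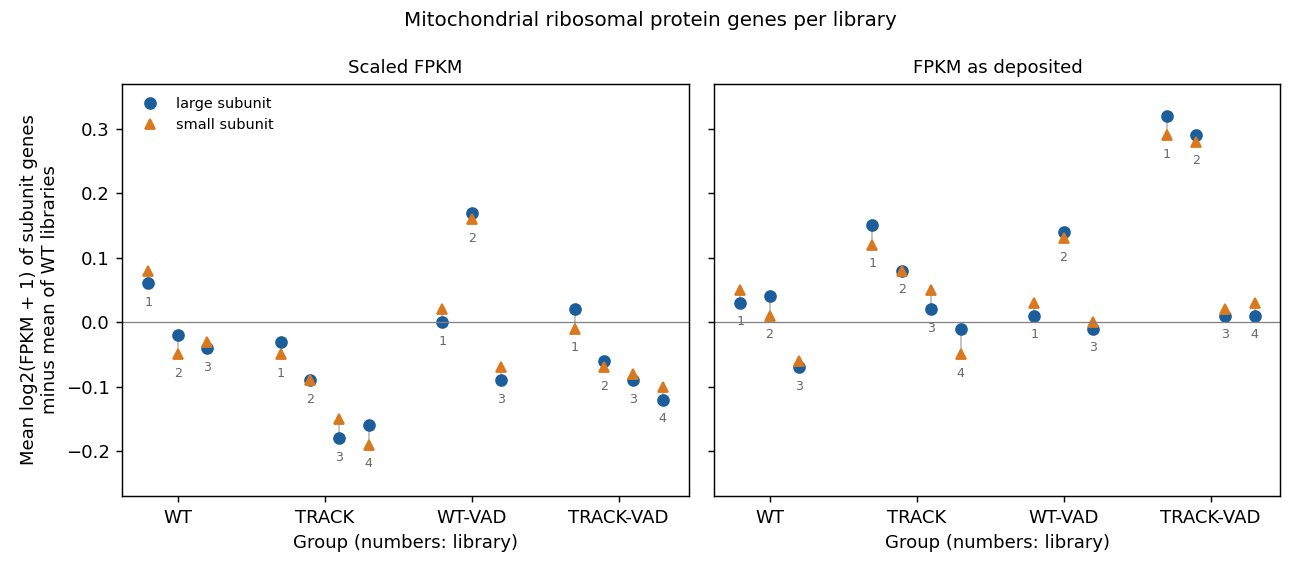
Mean log2(FPKM + 1) of the 47 large-subunit genes (circles) and 29 small-subunit genes (triangles) in each of the 14 libraries, minus the mean of the WT libraries, after scaling (left) and in the deposited FPKM (right). Circle and triangle of a library lie within 0.04 of each other, while the order of the groups differs between the panels.

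The mean of all members per library gives the average shift of the subunit genes. On the scaled values it spanned -0.03 to 0.07 for WT, -0.17 to -0.04 for TRACK, -0.08 to 0.16 for WT-VAD and -0.11 to 0.01 for TRACK-VAD, all as log2 distance from the WT mean. The TRACK libraries lay below all WT libraries, and the TRACK-VAD libraries overlapped with WT-VAD, whose library 2 was the highest of all at 0.16. In the deposited FPKM the same means spanned -0.07 to 0.04 for WT, -0.03 to 0.14 for TRACK, -0.01 to 0.13 for WT-VAD and 0.01 to 0.31 for TRACK-VAD, where libraries 1 and 2 at 0.31 and 0.29 stood above the other 12. The direction of a common genotype shift therefore depended on the scaling.

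On regular chow, TRACK was compared with WT to see which mitochondrial ribosomal protein genes differ with the transgene. Of 76 members, 6 were lower and 0 higher by limma on log2(scaled FPKM + 1), called at a Benjamini-Hochberg adjusted p of 0.05 or less over all genes tested. Over all 12251 genes, 8.20% were called lower and 8.83% higher, so the share of members called lower, 7.89%, was near the background. At an unadjusted p of 0.05, 2 members were higher and 18 lower, where 2063 and 1920 of all 12251 genes were. The 6 were Mrps21, Mrps22 and Mrps2 of the small subunit and Mrpl16, Mrpl4 and Mrpl50 of the large subunit. In all, 61 of 76 members had a difference below 0, against 6001 of 12251 genes.

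Mrps21 (chr3:95862634-95871519, minus strand, GRCm38) differed most. Its scaled FPKM was 212, 175 and 184 in WT and 154, 119, 125 and 117 in TRACK. Every TRACK library lay below every WT library, and the log2 difference was -0.56 (SE 0.12, adjusted p = 0.00795). It was the only member of this comparison whose call held whichever of the 14 libraries was left out (highest adjusted p 0.0499), and it was also lower without scaling, at -0.39 (adjusted p = 0.0216).

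Mrps22, a small-subunit protein with no bacterial counterpart whose human gene is a disease gene of mitochondrial translation, read 18.5, 18.1 and 16.0 scaled FPKM in WT and 14.5, 13.1, 12 and 12.9 in TRACK. The groups did not overlap, and the log2 difference was -0.39 (SE 0.10, adjusted p = 0.0208). Mrpl16, the counterpart of a bacterial protein that helps place transfer RNA on the large subunit, read 62.4, 54.3 and 57.1 in WT and 45.3, 44.6, 42.0 and 47.6 in TRACK. Its highest TRACK library was below the lowest WT library, with a log2 difference of -0.36 (SE 0.08, adjusted p = 0.0087). Mrpl4, whose bacterial counterpart lines the tunnel through which the new chain leaves, read 55.4, 50.7 and 50.3 in WT and 43.0, 42.2, 39.2 and 42.7 in TRACK. This was a log2 difference of -0.31 (SE 0.07, adjusted p = 0.013), again without overlap.

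Mrpl50, a large-subunit protein specific to mitochondria, read 57.3, 58.1 and 57.0 in WT and 53.2, 45.2, 42.1 and 45.0 in TRACK. TRACK library 1 came closest to WT, and the log2 difference was -0.31 (SE 0.08, adjusted p = 0.0187). Mrps2, of the small subunit and a human disease gene, had the narrowest groups, with 25.7, 25.1 and 25.5 in WT and 21.8, 22.1, 20.8 and 21.2 in TRACK. All 4 TRACK libraries were lower, by -0.23 on the log2 scale (SE 0.07, adjusted p = 0.0324).

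The number of calls on chow depended on single wild-type libraries and on the scaling. Without WT library 1 only 1 member was called lower, without WT library 2 or TRACK library 3 there were 3, and without scaling there were 2 higher (Mrpl54 and Mrps6) and 1 lower (Mrps21), against a background of 14.8% higher and 3.63% lower.

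The largest positive differences belonged to Mrpl52, a protein of the central protuberance, and Mrpl54, both of the large subunit. Mrpl54 read 67.8, 59.4 and 60.7 scaled FPKM in WT and 81.2, 73.8, 72.6 and 72.9 in TRACK. The groups did not overlap, but the log2 difference of 0.26 (SE 0.11, adjusted p = 0.108) did not pass the test. Without scaling it was 0.43 with an adjusted p of 0.0317. Mrpl52 read 99.4, 86.4 and 90.8 in WT and 106, 118, 110.2 and 117 in TRACK, a log2 difference of 0.29 (SE 0.13, adjusted p = 0.139). Mrps6 differed by 0.24 on the scaled values (adjusted p = 0.243) and by 0.42 without scaling (adjusted p = 0.0404), and it shares 159 exonic bases on the same strand with Slc5a3, a myo-inositol transporter gene. Counting groups that did not overlap, 3 members were higher and 18 lower in TRACK, where 19.2% and 18.8% of all genes were.

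**Figure D2:**
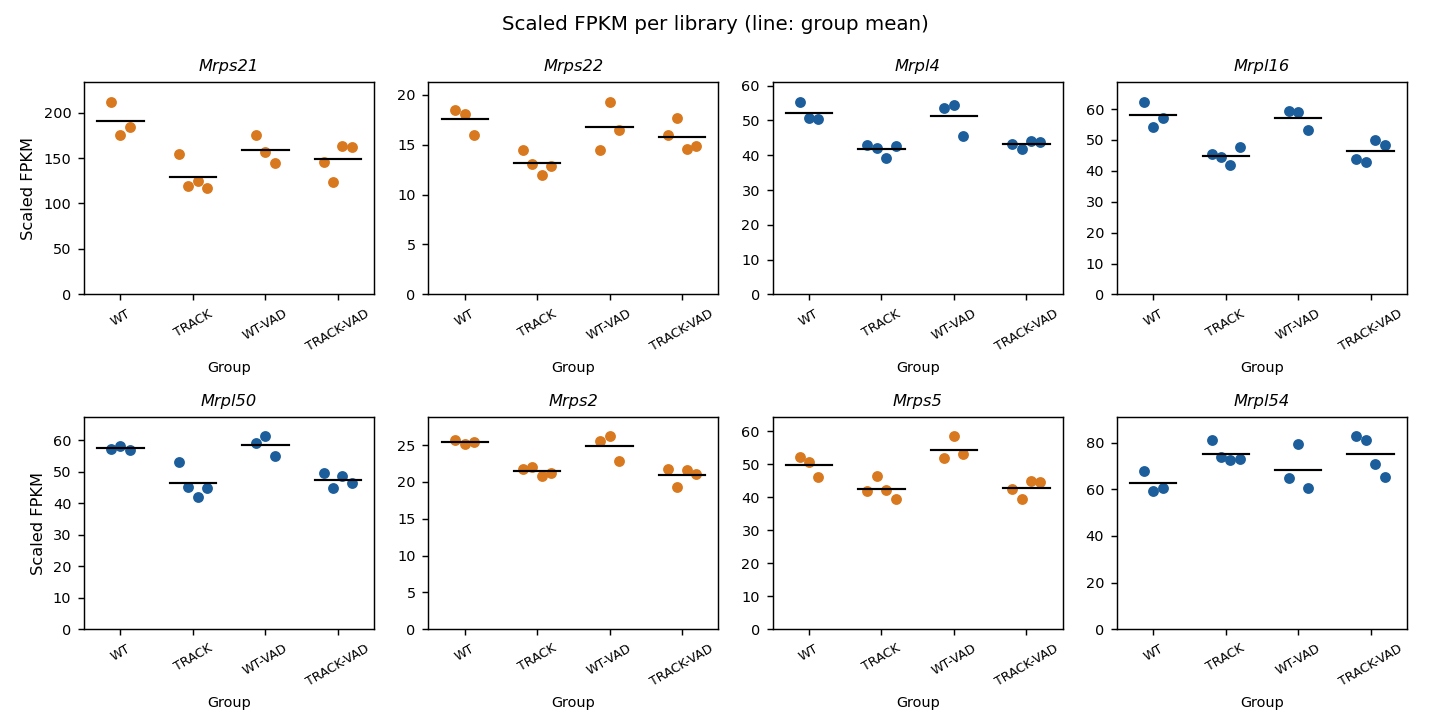
Scaled FPKM of 8 members in each library, by group, with the group mean as a line and large-subunit genes in blue and small-subunit genes in orange. Mrpl4, Mrpl16, Mrpl50 and Mrps2 are lower in transgenic mice on both diets, Mrps21 and Mrps22 separate the genotypes on chow, and Mrpl54 lies higher in TRACK than in WT.

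On the vitamin A deficient diet, TRACK-VAD was compared with WT-VAD. Of 76 members, 10 were lower and 0 higher, against a background of 10.8% lower and 11.3% higher. At an unadjusted p of 0.05, 0 members were higher and 14 lower, where 2214 and 2271 of all 12251 genes were. The 10 were Mrpl4, Mrpl12, Mrpl16, Mrpl20 and Mrpl50 of the large subunit and Mrps2, Mrps5, Mrps31, Mrps34 and Mrps36 by name of the small subunit. In all, 59 of 76 members had a difference below 0, against 6219 of all genes tested.

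Mrps5, whose bacterial counterpart bears on the accuracy of decoding, read 51.9, 58.5 and 53.1 scaled FPKM in WT-VAD and 42.4, 39.4, 45.0 and 44.7 in TRACK-VAD. The groups did not overlap, and the log2 difference of -0.34 (SE 0.08, adjusted p = 0.0105) was the only call of this comparison that held whichever library was left out. Mrps36 read 17.5, 17.1 and 13.4 in WT-VAD and 11.5, 11.7, 13.3 and 11.9 in TRACK-VAD, a difference of -0.37 (SE 0.10, adjusted p = 0.0255) with WT-VAD library 3 almost level with the highest TRACK-VAD library. Despite its name its protein is now known as a component of the 2-oxoglutarate dehydrogenase complex and not of the ribosome.

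Mrpl12, which forms the stalk that recruits translation factors, read 124, 147 and 116 in WT-VAD and 109, 101, 104 and 104 in TRACK-VAD. The TRACK-VAD libraries were all lower and close together, with a log2 difference of -0.29 (SE 0.09, adjusted p = 0.0326). Mrpl20, whose bacterial counterpart acts in assembly of the large subunit, read 123, 165 and 118 in WT-VAD and 106, 105, 110.3 and 105 in TRACK-VAD. WT-VAD library 2 stood far above the rest, and the difference was -0.32 (SE 0.11, adjusted p = 0.0425). It was -0.17 without that library, and the call was lost in 10 of the 14 fits that left out a library. Mrps34 differed by -0.25 (SE 0.08, adjusted p = 0.0414) and by -0.16 without WT-VAD library 2, and its call was lost in 11 of the 14 fits.

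The same 4 genes, Mrpl4, Mrpl16, Mrpl50 and Mrps2, were called lower in both genotype comparisons, 4 of 6 on chow and 4 of 10 on the deficient diet. The groups compared share no library, but both sets of calls come from a fit with a common estimate of the spread and are not independent. The call of Mrpl4 on the deficient diet was lost in 9 of the 14 fits that left out a library. In the authors' deposited tables Mrpl4 was lower on chow (adjusted p = 0.000251) but did not pass on the deficient diet (-0.18, adjusted p = 0.166). Mrpl16 read 59.3, 58.9 and 53.2 in WT-VAD and 43.9, 42.9, 50.0 and 48.5 in TRACK-VAD (log2 difference -0.30, SE 0.08, adjusted p = 0.0201). Mrpl50 read 59.3, 61.3 and 55.0 against 49.6, 44.9, 48.7 and 46.5 (-0.30, SE 0.08, adjusted p = 0.0198). In both genes the transgenic libraries lay below all wild-type ones, and Mrps2 and Mrpl4 followed with -0.24 (adjusted p = 0.0266) and -0.23 (adjusted p = 0.0405), also without overlap. Of all members, 51 lay below 0 in both comparisons and 7 above 0 in both. The matching counts over all genes are not given here, so neither these counts nor the 4 shared calls have a background.

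The calls on the deficient diet depended on single libraries, on which groups were fitted together and on the scaling. Without WT-VAD library 1 or 2, 1 member was called lower, and without TRACK-VAD library 1 or 2 there were 4. With these 7 libraries fitted alone there were 0, and with lane as a covariate also 0. The lane term rests on TRACK-VAD library 4 alone, so that fit cannot tell an effect of lane from a loss of precision. Without scaling 0 were lower and 1 higher (Mrpl19), against a background of 4.55% lower and 21.7% higher. Groups that did not overlap were found for 0 members in the higher direction and 14 in the lower, where 14.6% and 13.9% of all genes were.

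**Figure D3:**
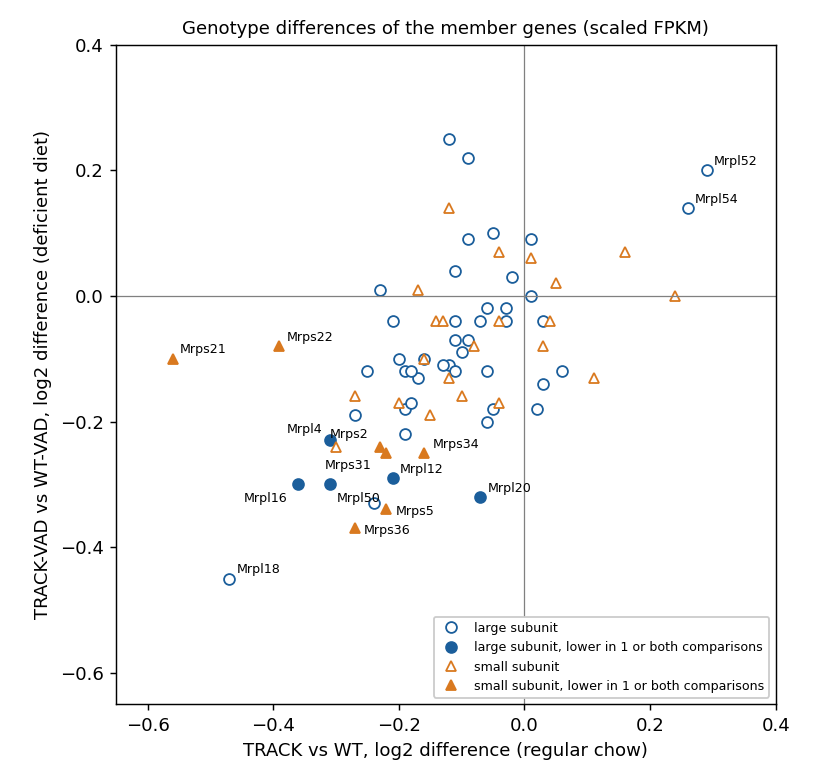
Log2 difference of scaled FPKM + 1 between transgenic and wild-type mice for the 76 members, on chow (horizontal axis) and on the deficient diet (vertical axis), with circles for large-subunit and triangles for small-subunit genes. Filled symbols passed the test in 1 or both comparisons, all of them below 0, and 51 of 76 genes lie below 0 on both axes. The matching share over all genes is not given.

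Scaled to the members' own mean, a scale chosen after the data had been seen, a gene is set against the rest of the mitochondrial ribosome. On that scale Mrps21 (-0.44, adjusted p = 0.0222) and Mrps22 (-0.28, adjusted p = 0.048) were lower and Mrpl54 (0.38, adjusted p = 0.00469) and Mrpl52 (0.41, adjusted p = 0.0331) higher in TRACK than in WT, where 3.64% of all genes were lower and 12.8% higher. On the deficient diet Mrpl54 was higher (0.23, adjusted p = 0.0438) and Mrpl20 lower (-0.23, adjusted p = 0.0497), where 4.63% were lower and 14.7% higher.

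No member passed the threshold for diet. In WT-VAD against WT 0 members were higher and 0 lower by limma, with a lowest adjusted p of 0.446, where 0.220% of all genes were higher and 0.294% lower. At an unadjusted p of 0.05, 2 were higher and 1 lower, where 591 and 654 of all 12251 genes were. In TRACK-VAD against TRACK the counts were also 0 and 0, with a lowest adjusted p of 0.386 and a background of 0.00816% higher and 0.147% lower. At the unadjusted threshold 3 members were higher and 0 lower, where 582 and 706 of all 12251 genes were. The median differences were 0.02 (large) and 0.03 (small) in wild-type mice and 0.05 and 0.03 in transgenic mice. The genotype by diet interaction gave 0 calls in either direction, against 0% and 0.00816% of all genes. At an unadjusted p of 0.05, 2 members were above 0 and 0 below, where 433 and 556 of all 12251 genes were. The lowest adjusted p of a member was 0.549. That lowest value was Mrps21, whose genotype difference was -0.56 on chow and -0.10 on the deficient diet (interaction 0.47, SE 0.17). Mrps21 read 175, 157 and 144 scaled FPKM in WT-VAD and 146, 124, 163 and 162 in TRACK-VAD, so these groups overlapped.

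The authors' deposited tables rest on counts with their own normalization, and in TRACK against WT 66 of 76 members had the same sign there as in FPKM. In the authors' deposited table for TRACK against WT, 21 of the 75 members with an adjusted p were lower at 0.05 and 0 higher, where 12.1% of their genes were lower and 11.8% higher. The share of the members lower there was 28.0%, with 13 of 46 large-subunit and 8 of 29 small-subunit genes. Mrpl53, with a mean normalized count of 0.269, has no adjusted p there, and its sign there rests on almost no reads. In the authors' deposited table for TRACK-VAD against WT-VAD, 12 of 75 (16.0%) were lower and 0 higher, where 14% of all their genes were lower and 14.7% higher. Of the members called lower in FPKM on that diet, Mrpl4 (adjusted p = 0.166), Mrps34 (0.209) and Mrps36 (0.0861) did not pass there. Mrpl12, Mrpl35 and Mrps31 were among the members lower in both of the authors' genotype comparisons. The authors' deposited tables for diet held 0 members in either direction, where 0.930% of genes were higher and 1.48% lower in WT-VAD than in WT, and 0.470% and 0.883% in TRACK-VAD than in TRACK. In the authors' deposited table Mrpl18 was lower on chow (log2 fold change -0.32, SE 0.09, adjusted p = 0.00294) and on the deficient diet (-0.44, SE 0.09, adjusted p = 2.18e-05). In FPKM Mrpl18 had differences of -0.47 and -0.45 that did not pass (adjusted p = 0.166 and 0.17). They were -0.25 without WT library 2 and -0.21 without WT-VAD library 1.

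The members were also counted by role, beside 8.20% of all genes called lower on chow and 10.8% on the deficient diet. Members listed with a bacterial homologue were lower in 4 of 45 cases on chow and 6 of 45 on the deficient diet. Those not listed with one were lower in 2 of 30 and 3 of 30. The medians of these lists were -0.12 and -0.11 on chow. Mrps36 was left out of both, and of the paralogs Mrps18a, Mrps18b and Mrps18c only Mrps18c was listed with a homologue. The stalk and its base (Mrpl10, Mrpl11, Mrpl12) held 1 call, Mrpl12 on the deficient diet. Mrpl10 differed by -0.27 on chow and Mrpl11 by 0.03, neither past the threshold. Of 6 central protuberance genes (Mrpl18, Mrpl38, Mrpl40, Mrpl46, Mrpl48, Mrpl52) 0 were called. The 4 tested genes of the exit tunnel list (Mrpl22, Mrpl24, Mrpl44, Mrpl45) also held 0 calls, but it leaves out Mrpl4, whose bacterial counterpart lines the tunnel and which was called lower on both diets in scaled FPKM. A written list, which need not be complete, held 12 members as human disease genes of mitochondrial translation. Of these, Mrps2 and Mrps22 were lower on chow and Mrps2, Mrps34 and Mrpl12 on the deficient diet. Mrps18a and Mrps30 are built into the large subunit despite their names. With these moved and Mrps36 left out, the medians were -0.11 (49 large) and -0.13 (26 small) on chow, and -0.10 and -0.10 on the deficient diet.

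Mrpl44, which sits near the exit tunnel, shares 126 exonic bases on the opposite strand with Wdfy1, a gene whose scaled FPKM was 22.0 ± 0.554 in WT and 3.56 ± 0.506 in TRACK (log2 difference -2.34, SE 0.13, adjusted p = 9.46e-08). Mrpl44 itself read 30.4 ± 1.91 and 26.7 ± 1.85 (SD, n = 3 and 4), a log2 difference of -0.18 (SE 0.08, adjusted p = 0.114).

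Related genes were read the same way from lists that were written for this purpose, beside 8.20% of all genes called lower on chow and 10.8% on the deficient diet, and 3.63% and 4.55% without scaling. Of 14 mitochondrial translation factors, 4 were lower on chow and 6 on the deficient diet, 0 were higher, and the medians were -0.21 and -0.24. Without scaling 1 and 4 were lower, with medians of -0.03 and -0.04. Gfm1, the elongation factor that moves the ribosome along the message, differed by -0.55 (SE 0.14, adjusted p = 0.0161) on chow and -0.61 (SE 0.14, adjusted p = 0.00939) on the deficient diet. It was also lower without scaling, at -0.38 (adjusted p = 0.0224) and -0.40 (adjusted p = 0.014). Tufm, which brings transfer RNA to the ribosome, differed by -0.37 (adjusted p = 0.00752) and -0.30 (adjusted p = 0.0199), and Mrrf, the recycling factor, by -0.46 (adjusted p = 0.0043) on chow. Mtif3, an initiation factor, differed by -0.58 (adjusted p = 0.00506) on the deficient diet.

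Of 24 genes for ribosome assembly and rRNA modification, 2 were lower on chow (Mterf4 and Nsun4, which form a complex) and 1 on the deficient diet (Gtpbp10). Of 7 other genes listed with the mitoribosome, only Oxa1l was lower, on chow (-0.37, adjusted p = 0.0156). Its protein inserts new chains into the inner membrane and is not itself a ribosomal protein. Of 5 genes of mitochondrial transcription, Tfam was lower on chow (-0.31, adjusted p = 0.0174). Among 17 mitochondrial aminoacyl-tRNA synthetases 5 were lower on chow and 4 on the deficient diet, and among 36 complex I subunits 7 and 4, with 0 higher. The 4 complex I subunits on the deficient diet are a share near that of all genes. The complex I medians of -0.15 and -0.15 lay beside those of the mitochondrial ribosome, and without scaling they were 0.02 and 0.06. Without scaling, 1 and 0 synthetases and 1 and 3 complex I subunits were lower on chow and the deficient diet. In the assembly, other mitoribosome and transcription lists 0 were lower then on either diet. Higher without scaling were 1 synthetase, 2 complex I subunits and 1 assembly gene on the deficient diet, where 21.7% of all genes were.

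On the scaled values the median of the cytosolic ribosome had the opposite sign, while without scaling the medians of both ribosomes were above 0 (0.47 and 0.62 for the cytosolic, 0.06 and 0.10 for the mitochondrial). Of its 76 protein genes tested, 9 were higher and 1 lower on chow, with a median of 0.30, and 37 were higher and 1 lower on the deficient diet, with a median of 0.43, where 8.83% and 11.3% of all genes were higher. Without scaling 26 and 54 were higher and 0 lower, where 14.8% and 21.7% of all genes were higher. Because a factor common to a library nearly cancels between lists, the mean log2 level of the cytosolic minus that of the mitochondrial ribosomal protein genes was taken per library, relative to WT. It was 0.05, 0.00 and -0.05 in the WT libraries and 0.44, 0.36, 0.48 and 0.39 in TRACK. In WT-VAD it was -0.03, 0.02 and -0.01, and in TRACK-VAD it was 0.61, 0.77, 0.29 and 0.33. All 8 transgenic libraries lay above all 6 wild-type libraries, and TRACK-VAD libraries 1 and 2 were the highest. Without TRACK-VAD library 2, which stood apart, that group spanned 0.29 to 0.61. In the deposited FPKM the group ranges were -0.04 to 0.05, 0.34 to 0.46, -0.03 to 0.02 and 0.29 to 0.75 in the same order. Cytosolic ribosomal protein genes have many processed pseudogenes that can take their reads, and the macrophage and lymphocyte markers were higher in the same libraries. The 5 lymphocyte markers, none at 0, summed to between 12.9 and 21.1 scaled FPKM in WT libraries, 162 and 379 in TRACK libraries, 22.5 and 45.0 in WT-VAD libraries, and 48.5 and 253 in TRACK-VAD libraries. The typical marker moved less than these sums. Across the 5 the log2 difference had a median of 0.51 on chow (0.44 to 4.15) and 0.71 on the deficient diet (0.57 to 1.93). Their part in the gap was not tested.

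**Figure D4:**
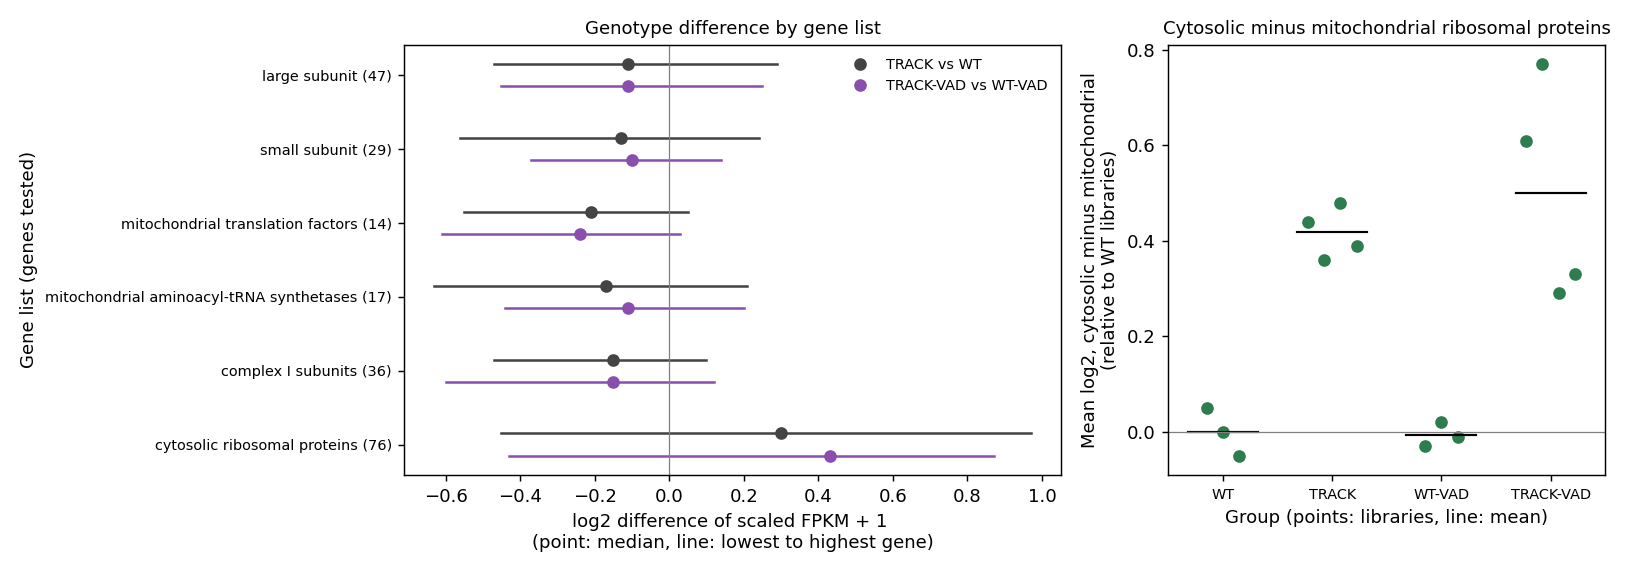
Left, the median (point) and the lowest and highest gene (line) of the log2 difference between transgenic and wild-type mice on each diet, for the subunits of the mitochondrial ribosome and related lists. Right, the mean log2 level of cytosolic minus mitochondrial ribosomal protein genes per library, relative to WT, where the 8 transgenic libraries lie between 0.29 and 0.77 and the 6 wild-type libraries between -0.05 and 0.05.

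Shown are the promoters of the members lower in both genotype comparisons, and of Mrps21, whose call on chow held whichever library was left out. Each is the 250 bases before the start in RefSeq (GRCm38.p6), written from 5′ to 3′ on the strand of the gene, at chr19:11770165-11770414 (plus), chr4:49521084-49521333 (minus), chr2:28467816-28468065 (plus) and chr3:95871515-95871764 (minus). Capitals mark a match to a searched motif on either strand, and Mrpl4 is named only. The promoter of Mrps5, whose call on the deficient diet held whichever library was left out, is not shown.
Mrpl16: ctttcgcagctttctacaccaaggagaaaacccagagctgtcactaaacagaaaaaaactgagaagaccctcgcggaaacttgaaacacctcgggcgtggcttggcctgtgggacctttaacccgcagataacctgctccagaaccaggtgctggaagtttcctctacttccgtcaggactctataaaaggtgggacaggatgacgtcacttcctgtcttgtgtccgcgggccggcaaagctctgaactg
Mrpl50: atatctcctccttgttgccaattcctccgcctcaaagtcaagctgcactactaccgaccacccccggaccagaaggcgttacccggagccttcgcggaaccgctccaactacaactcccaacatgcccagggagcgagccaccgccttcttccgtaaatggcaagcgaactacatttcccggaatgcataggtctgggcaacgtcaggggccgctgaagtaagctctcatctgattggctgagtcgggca
Mrps2: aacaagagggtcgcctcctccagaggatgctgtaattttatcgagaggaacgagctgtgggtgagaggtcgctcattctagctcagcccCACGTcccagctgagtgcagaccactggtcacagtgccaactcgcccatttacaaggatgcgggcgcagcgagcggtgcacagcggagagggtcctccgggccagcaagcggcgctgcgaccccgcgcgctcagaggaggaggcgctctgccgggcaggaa
Mrps21: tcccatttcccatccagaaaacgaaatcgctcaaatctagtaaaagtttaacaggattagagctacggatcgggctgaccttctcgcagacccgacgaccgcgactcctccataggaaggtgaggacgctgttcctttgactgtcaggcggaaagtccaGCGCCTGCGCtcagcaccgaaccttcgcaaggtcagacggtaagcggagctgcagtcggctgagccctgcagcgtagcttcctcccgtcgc

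The motifs searched, on both strands, were GCGCA and GCGC with 1 base of any kind between them (the site of NRF1, a regulator of nuclear genes for mitochondria), CCGGAAG (ETS factors, which include the regulator GABP), AAGATGG (YY1) and ACGTG (the core bound by hypoxia-inducible factors). In Mrps21 the NRF1 letters began 91 bases before the start and in Mrps2 the ACGTG core began 161 bases before it, both on the opposite strand, and Mrpl16 and Mrpl50 held none of these letters in this window. RefSeq promoters were matched for 67 of 76 members. The NRF1 letters stood in 14.9% of them against 4.23% of all 27025 genes with a RefSeq promoter. That background was used for every motif and was not limited to the genes tested here. Among members the NRF1 letters stood in 9 of 41 large-subunit genes (22.0%) and in 1 of 26 small-subunit genes (3.85%), which was Mrps21. The ETS letters stood in 25.4% of members (26.8% of large-subunit and 23.1% of small-subunit genes) against 7.83% of all genes. YY1 letters were in 8.96% against 5.18%, and the ACGTG core was in 20.9% of members against 18.5% of all genes.

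**Figure D5:**
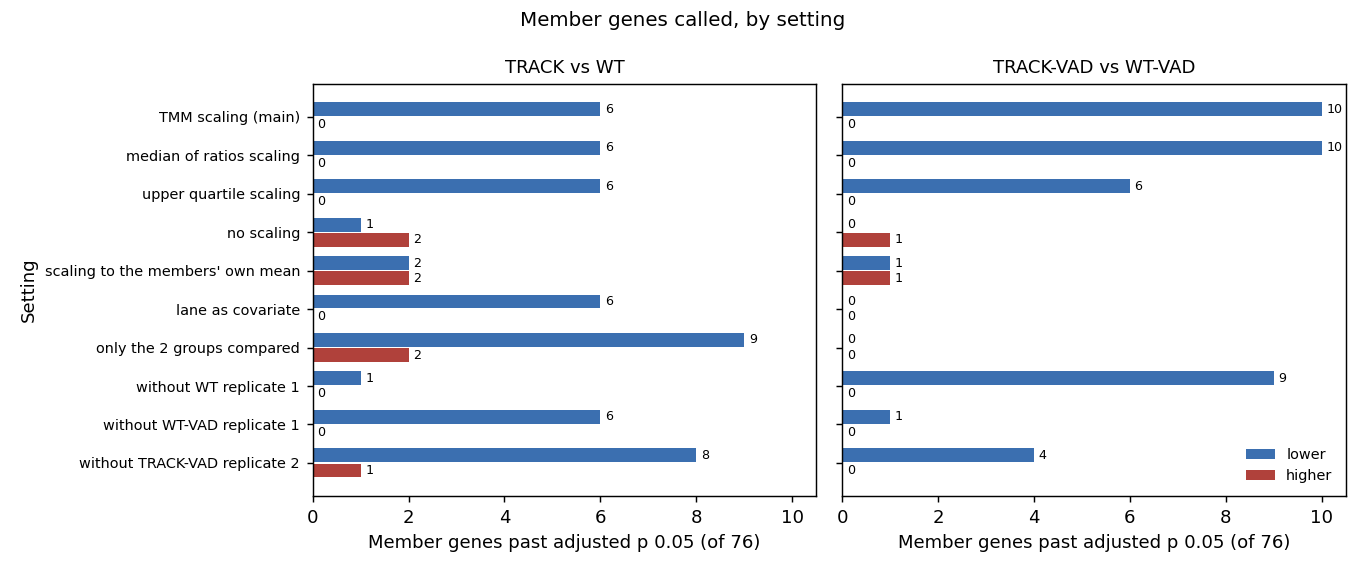
Number of the 76 members past an adjusted p of 0.05 in each genotype comparison, lower (blue) and higher (red) in transgenic mice, under the main TMM scaling and 9 alternatives. On chow 6 are lower under the main setting and 1 without scaling or without WT library 1, and on the deficient diet the 10 lower fall to 0 without scaling, with lane as a covariate or with only these 2 groups.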

How the data were processed

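RNA-seq libraries (51-base single-end reads) of 14 kidney cortex samples in 4 groups were used, each taken as a separate mouse. The authors deposited FPKM for protein-coding loci (22053 rows, 22007 gene IDs); how FPKM were computed is not given in the sources used here. Tables of the authors' own comparisons were deposited too, whose columns per the file headers are a mean normalized signal from counts, log2 fold changes with standard errors, and p-values. The submitters' processing notes name DESeq 1.32 and mm9, but 62 of the 76 members have in the table exactly the locus of GENCODE vM21 on GRCm38. A further 6 per-sample columns matched no library label and were not used. FPKM give no depth and no counting interval.

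Genes at 1 FPKM in 3 libraries were kept and 17 listed at 0 in a library where others were high were left out. FPKM were scaled by an unweighted TMM (30% of log ratios and 5% of levels trimmed) and log2(scaled FPKM + 1) was fitted in R 4.3.3 by limma 3.58.1 (trend, two-sided tests) over all 14 libraries as 4 group means; differences are on that scale and understate low genes. The procedure was tested on simulated data. Alternatives were other scalings, none, a pseudocount of 0.1, no filter or 3 FPKM, 2 groups only, lane, a replicate block, and each library left out. Named genes were those called (at most 4 per direction and subunit beyond 8), the extreme members of each subunit, the highest and lowest in WT and fixed role lists; Mrpl20, Mrpl54, Mrps34, Mrpl43 and Wdfy1 were added after their values were seen. The members and lists were chosen with earlier results of these data known. Each limma p-value sets a difference between groups against the spread between libraries within groups, estimated over all 14 in the main fit and moderated across genes.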

Additional observations from a re-analysis of the deposited data

Results flagged for a closer look

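In groups of 4, a library was marked where its gap to the nearest other library, as a share of the range of the group, exceeded Dixon's 95% critical value. Of 152 gene and group pairs 11 were marked, and chance marks about 1 in 20. TRACK library 1 stood above the rest of its group in 5 genes, at 11.7 scaled FPKM for Mrpl11, 97.0 for Mrpl14, 38.5 for Mrpl43, 81.2 for Mrpl54 and 31.8 for Mrps25. TRACK library 4 stood below its group at 30.9 for Mrpl18 and 14.5 for Mrpl47, and TRACK library 2 at 75.5 for Mrps18c. In TRACK-VAD, library 2 stood above the rest at 101 for Mrps18c, and library 4 stood below at 46.1 for Mrpl15 and 19.0 for Mrps30. None of these genes was called in either genotype comparison on the scaled values.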

How the results depend on the processing

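None of the 16 differences of members that passed the test reversed under the alternatives run, and related genes outside the members were not followed through them. For TRACK against WT, members called higher numbered 2 without scaling, 2 with only the groups compared and 2 on the members' own mean (a scale chosen after seeing the data), and 0 to 1 with each library left out (1 without TRACK-VAD library 2). Members called lower numbered 1 without scaling, 2 on their own mean and 1 to 8 with each library left out. The medians (large, small) were 0.06 and 0.04 without scaling, 0.00 and -0.02 on the own mean, and -0.15 to -0.07 and -0.16 to -0.10 with each library left out. For TRACK-VAD against WT-VAD, 1 was higher without scaling and 1 on the own mean. Lower were 0 without scaling, 6 with upper quartile scaling, 6 with a filter of 3 FPKM, 0 with only the groups compared, 0 with lane as a covariate, 1 on the own mean and 1 to 10 with each library left out (6 without TRACK library 1, 2 or 4). The medians were 0.09 and 0.11 without scaling, -0.02 and 0.00 on the own mean, and -0.14 to -0.04 and -0.16 to -0.04 with each library left out. For WT-VAD against WT, the median of the small subunit was -0.02 to 0.12 with each library left out, 0.12 being without WT-VAD library 3. Same-numbered libraries did not deviate together (correlations of -0.142 to 0.382 over 19 pairs, 6 above 0.1), and a fit with the replicate number as a block gave 5 and 9 lower and 0 higher. Of the 16 called differences of single members, 16 held with median of ratios scaling, with a pseudocount of 0.1 and with no filter, 6 with lane as a covariate and 1 without scaling. The cause of these changes was not tested. FPKM keep no counts, so what depth limits is unknown.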
